A study of Mus musculus with 6 samples.

Results

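The genes described are the subunits of the mouse proteasome and the proteins that help to assemble it, taken by symbol: every row of the table of gene counts whose symbol starts with Psm, a letter from a to g and a digit, together with Pomp. Of the 24411 genes in the table, 51 met this rule. They comprised 14 genes of the 20S core, 3 of the immunoproteasome, 6 ATPases and 14 non-ATPases of the 19S particle, 6 activators including the inhibitor Psmf1, and 5 chaperones, 48 genes in all. The remaining 3 were kept apart. Psma8, a subunit of germ cells, had 0 to 2 counts in a mouse, Psmb11, a subunit of the thymus, had 0 counts in every mouse, and Psmc3ip, whose product is not a proteasome subunit, was at -0.33 on the log2 scale (adjusted p = 0.642, edgeR). All 48 genes passed the filter on low counts. RNA was sequenced from a fast-twitch muscle of the lower hindlimb, the extensor digitorum longus (EDL), of 3 mAktDKO and 3 control floxed mice of the C57BL/6J strain at the age of 50 weeks. Both groups carried floxed Akt1 and Akt2 alleles, and the mAktDKO mice (genotype Mlc1f-Cre:Akt1/2-floxed) carried in addition Cre recombinase at the Mlc1f myosin light-chain promoter, so that deletion is directed to fast fibres, and other cells of the muscle keep their floxed alleles where this promoter is not active. The control mice (Akt1/2-floxed) are labelled without Cre, so the recombinase itself differs between the groups as well. The comparison asks how the genes of the protein-degrading machinery are expressed in fast-twitch muscle after deletion in the fibres of Akt, the kinase that transmits insulin and IGF-1 signals.

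The proteasome degrades proteins that have been tagged with ubiquitin and is known in skeletal muscle for the removal of contractile proteins during atrophy. Its 20S core is a barrel of stacked rings, with alpha subunits in the outer rings forming a gate and beta subunits in the inner rings carrying the catalytic sites. The 19S particle caps the barrel, recognises ubiquitin, removes it, and unfolds the substrate with a ring of ATPases. In immune cells and under interferon, 3 of the beta subunits are exchanged for the immunoproteasome subunits, and other caps, the activators, can take the place of the 19S particle. The transcription factors Nfe2l1 and Nfe2l2 bind the antioxidant response element in promoters of proteasome genes, and NF-Y binds the CCAAT box.

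Promoters are shown for Psmb5 and Psmb6, the catalytic subunits with the smallest p-values among all members. The sequences are from RefSeq (GRCm38.p6, the same build as mm10), read 5′ to 3′ on the strand of the gene, and cover the 250 bases before the RefSeq start. Capitals mark the core of the antioxidant response element (TGACNNNGC) and the GC box (GGGCGG, here as CCGCCC on the other strand). Psmb5 lies at chr14:54617996-54618245 on the minus strand and Psmb6 at chr11:70525107-70525356 on the plus strand.
Psmb5: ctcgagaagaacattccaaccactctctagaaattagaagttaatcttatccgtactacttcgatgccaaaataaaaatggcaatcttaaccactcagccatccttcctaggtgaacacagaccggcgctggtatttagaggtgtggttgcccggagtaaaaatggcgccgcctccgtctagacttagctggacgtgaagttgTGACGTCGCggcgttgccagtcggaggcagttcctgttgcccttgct
Psmb6: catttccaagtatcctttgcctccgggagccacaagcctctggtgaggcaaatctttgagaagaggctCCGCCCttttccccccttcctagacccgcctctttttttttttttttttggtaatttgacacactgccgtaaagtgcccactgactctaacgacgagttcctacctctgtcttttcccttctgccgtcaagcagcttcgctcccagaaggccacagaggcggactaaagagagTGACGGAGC
The element began 47 bases before the RefSeq start in Psmb5 and 9 bases before it in Psmb6. By GENCODE, Psmb5 starts further upstream, and the last 27 bases of its window lie inside the gene.

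The same core was found in 6 of the 44 promoter windows (250 bases before to 50 after the start) that the reference holds for 41 of the 48 genes, a share of 13.6%. Among all 32851 promoters of the table the share was 12.4%, and among the 21263 of protein-coding genes it was 13.0%, so this motif was about as frequent in proteasome genes as elsewhere. The other members with a match were Psmc6, Psmd12, Psmd9 and Psme4, whose matches are shown with up to 10 bases on either side, the core in capitals, at chr14:45329587-45329615, chr11:107479278-107479299, chr5:123228149-123228177 and chr11:30771758-30771786, all on the plus strand. By GENCODE the genes Psmd9 and Psme4 begin at 123169413 and 30771726, so these 2 matches lie inside the annotated gene, and that of Psme4 crosses the RefSeq start.
Psmc6: ccagccagtaGCTAAGTCAggcattgctc
Psmd12: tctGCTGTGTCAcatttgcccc
Psmd9: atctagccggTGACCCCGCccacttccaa
Psme4: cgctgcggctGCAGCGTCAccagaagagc
In Psmc6, Psmd12 and Psme4 the core read on the opposite strand, and in Psmd9 it overlapped a GC box. The GC box (GGGCGG, either strand) was found in 25 windows (56.8%) against 35.7% of all promoters and 46.2% of those of protein-coding genes, and by group in 10 of the 12 windows of the 19S non-ATPases (83.3%), 3 of 6 of the ATPases, 5 of 12 of the 20S core (41.7%), 4 of 7 of the activators, 2 of 4 of the chaperones and 1 of 3 of the immunoproteasome. The CCAAT box (either strand) was found in 13 windows (29.5%) against 37.4% and 38.2%. The forkhead motif TGTTTAC, searched on either strand because FoxO factors are substrates of Akt, was in 0 of the 44 windows, against 3.65% of all promoters. A match of letters is a description and does not show binding, and the absence of these letters applies to these windows alone. In 33 of the 44 windows, bases after the RefSeq start were found near the 5′ end of the principal GENCODE transcript, and the windows of Psmb8 and Psmb9 lie in a 5′UTR of a GENCODE transcript, so these shares are of windows at the RefSeq start. Psmb1, Psmb2, Psmb7, Psmc3, Psmd3, Psmd7 and Psmg2 were not matched to a promoter window.

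The libraries were of similar depth, with 13738795 to 15445523 estimated counts per mouse, and a gene at 3 counts lies at 0.194 to 0.218 CPM (counts relative to the library total). This floor covers counting error only. The 48 genes together took 0.283% to 0.288% of the counts in the mAktDKO mice and 0.294% to 0.308% in the control mice. Levels of single genes are given in CPM with library sizes scaled by TMM, in the mAktDKO mice 1 to 3 and then in the control mice, which are numbered 2 to 4 in the table. Log2 fold changes are mAktDKO relative to control, with the standard error (SE) and the Benjamini-Hochberg adjusted p of edgeR's quasi-likelihood test over all 12892 genes tested. A gene was called at an adjusted p under 0.01. As a check of the labels, Akt2 was at 51.3, 49.1 and 52.7 CPM in mAktDKO and 172, 133 and 143 CPM in control EDL (log2 fold change -1.55, adjusted p = 0.000923, edgeR), and Akt1 was at -0.25 on the log2 scale (adjusted p = 0.115, edgeR). Markers of fast fibres summed to 137693 to 171238 CPM and those of slow fibres to 686 to 1425 CPM. In bulk RNA, fewer cells of a type and less RNA per cell cannot be told apart.

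Across the proteasome, TMM-scaled estimates in the mAktDKO mice were lower for the genes of the 20S core and the 19S particle, by up to 31.9%, while those of the immunoproteasome and the activators lay on both sides of 0. Of the 48 genes, 43 had a lower estimate (34 when scaled by library totals in place of TMM), against 47.5% of all genes tested, and the median log2 fold change was -0.22, a level 14.1% lower, against 0.017 over all genes. Scaling by library totals moves the median of all genes to 0.16, and 43 of the 48 members lie below the median of all genes under either scaling. In 27 of the 48 (12 by library totals) the highest mAktDKO mouse was below the lowest control mouse, a share of 56.3% compared with 16.6% of all genes (6.90% by library totals), and in 0 the lowest mAktDKO mouse was above the highest control mouse, compared with 14.6% of all genes. No member passed the adjusted p of 0.01 in edgeR, a threshold at which 0.0233% of all genes were called lower. At 0.05, Psmb5 alone was below the threshold, and 0.915% of all genes were called lower. This call was lost without mAktDKO mouse 1, 2 or 3 (adjusted p = 0.0966, 0.220 and 0.115, edgeR), without control mouse 3 (0.0911) and with library totals (0.0626). With no filter on low counts and with at least 10 counts in every mouse, Psmb6 was also called at 0.05 (adjusted p = 0.0419 and 0.0492, edgeR). Without adjustment, 21 members had p under 0.05 and a lower estimate, where the share of all genes was 13.1%, and 0 members had p under 0.05 and a higher estimate, where the share of all genes was 11.4%. By library totals these counts were 6 and 1 (5.02% and 23.0% of all genes), and without mAktDKO mouse 2 they were 12 and 0 (8.08% and 6.28%). DESeq2 called Psmb5 and Psmb6 lower at 0.01, with 2.34% of all genes called lower, and at 0.05 in addition Psmb7, Psmc3 and Psmc5, with 5.02% of all genes. The counts of members are descriptions, since the subunits of one complex are not independent of each other.

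**Figure D1:**
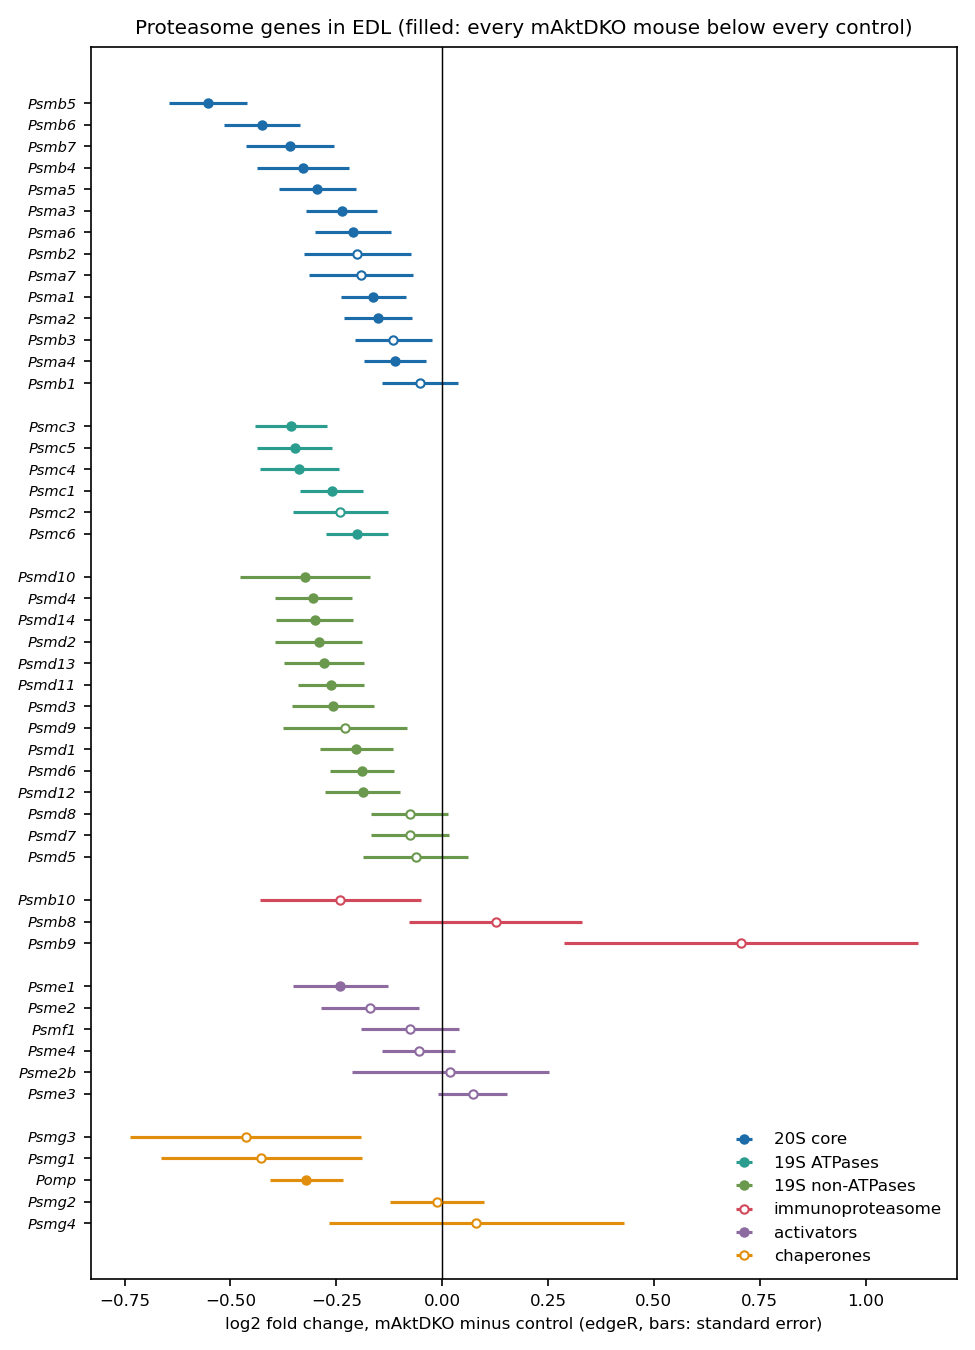
Log2 fold change of each of the 48 proteasome genes between mAktDKO and control floxed mice (horizontal axis) with its standard error, grouped by role and ordered by size. Filled points mark the 27 genes in which every mAktDKO mouse was below every control mouse. With the TMM scaling drawn, all points of the 20S core and the 19S particle lie left of 0 (28 of 34 by library totals), between -0.55 for Psmb5 and -0.053 for Psmb1, while the immunoproteasome, activators and chaperones lie on both sides.

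The 34 genes of the 20S core and the 19S particle were all at a lower estimate (34 of 34, or 28 of 34 by library totals, where Psma4, Psmb1, Psmb3, Psmd5, Psmd7 and Psmd8 were higher), with a median log2 fold change of -0.24, a level 15.3% lower. Of these, 10 were below -0.3, 20 were between -0.3 and -0.1, and 4 were above -0.1. In 25 of the 34 the groups did not overlap (11 by library totals). Among all genes tested, 47.5% had a lower estimate and 16.6% were lower without overlap. By library totals these shares were 29.6% and 6.9%. The 4 closest to 0 were Psmb1 at -0.053, Psmd5 at -0.062, Psmd7 at -0.076 and Psmd8 at -0.077, and in each of these the groups overlapped. Among the 34 are Psmd5, Psmd9 and Psmd10, chaperones that assemble the base and leave the finished particle. Without these chaperones and with TMM scaling, 31 of 31 genes had a lower estimate, 24 without overlap, and the median was -0.24.

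Within the 20S core, the catalytic beta subunits had the largest differences. Psmb5 (chromosome 14, 54614119 to 54618022), which carries the chymotrypsin-like activity, was at 53.6, 47.0 and 47.7 CPM in mAktDKO and 77.5, 74.0 and 66.1 CPM in control EDL. The groups did not overlap, and the means were 49.4 ± 3.66 and 72.6 ± 5.87 CPM (SD, n = 3), a level 31.9% lower. Its log2 fold change was -0.55 (SE 0.093, adjusted p = 0.0398 in edgeR and 0.000295 in DESeq2). Psmb6 (chromosome 11, 70525367 to 70527858), which carries the caspase-like activity, was at 53.3, 45.5 and 50.7 CPM in mAktDKO and 71.7, 65.5 and 63.6 CPM in control EDL. These groups also did not overlap, and the log2 fold change was -0.43 (SE 0.090, adjusted p = 0.0557 in edgeR and 0.00841 in DESeq2). Psmb7 (chromosome 2, 38588036 to 38644087), which carries the trypsin-like activity, was at 108, 99.9 and 122 CPM and 154, 143 and 127 CPM. The highest mAktDKO mouse was close to the lowest control mouse but below it, and the log2 fold change was -0.36 (SE 0.10, adjusted p = 0.0922, edgeR).

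The beta subunits without a catalytic site were more varied. Psmb4 was at 63.6, 53.0 and 64.0 CPM in mAktDKO and 84.9, 72.1 and 69.7 CPM in control EDL, with no overlap (log2 fold change -0.33, adjusted p = 0.122, edgeR). Psmb2 was at -0.20, Psmb3 at -0.12 and Psmb1 at -0.053 on the log2 scale, and in all 3 the groups overlapped. The 7 beta subunits had a median log2 fold change of -0.33, with 4 genes without overlap (3 by library totals). The 7 alpha subunits, which form the gate of the barrel, lay in a narrower range, from -0.29 for Psma5 to -0.11 for Psma4, with a median of -0.19. In 6 of the 7 the groups did not overlap (1 by library totals), the exception being Psma7, where mAktDKO mouse 3 at 42.7 CPM was above control mice 3 and 4 at 41.5 and 39.1 CPM. Psma5 was at 31.3, 30.0 and 32.2 CPM in mAktDKO and 41.4, 34.9 and 38.3 CPM in control EDL (adjusted p = 0.105, edgeR). Over the whole 20S core, 14 of 14 genes had a lower estimate (11 by library totals). In 10 the groups did not overlap (4 by library totals), and 7 had an unadjusted p under 0.05. Of all genes tested, 47.5% had a lower estimate (29.6% by library totals) and 16.6% were lower without overlap (6.9% by library totals). At an unadjusted p under 0.05, 13.1% of all genes were lower.

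The ATPases of the 19S particle, which form a ring that unfolds substrates and threads them into the core, spanned the narrowest range of the 6 groups. All 6 had a lower estimate under either scaling, against 47.5% of all genes (29.6% by library totals). With TMM they ran from -0.36 for Psmc3 to -0.20 for Psmc6, with a median of -0.30. Of the 6, 5 had an unadjusted p under 0.05, and 13.1% of all genes were lower at this p. Psmc3 (chromosome 2, 91054009 to 91066369) was at 105, 98.4 and 113 CPM in mAktDKO and 144, 132 and 130.0 CPM in control EDL, without overlap (log2 fold change -0.36, SE 0.085, adjusted p = 0.0646 in edgeR and 0.0152 in DESeq2). Psmc5 was at 56.7, 49.8 and 58.5 CPM against 74.0, 66.7 and 69.4 CPM (log2 fold change -0.35, adjusted p = 0.0733 in edgeR and 0.0371 in DESeq2). Psmc4 was at 46.7, 44.0 and 48.1 CPM against 64.7, 57.2 and 53.5 CPM (log2 fold change -0.34, adjusted p = 0.0848, edgeR). In these 3 ATPases every mAktDKO mouse was below every control mouse. Psmc1 was at -0.26 and Psmc6 at -0.20 with no overlap, and Psmc2, the one ATPase with overlapping groups, was at -0.24.

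The non-ATPases of the 19S particle include the ubiquitin receptor Psmd4, the scaffold subunits Psmd1 and Psmd2 of the base, and the lid with the deubiquitinase Psmd14. All 14 had a lower estimate (11 by library totals), with a median of -0.24, and in 10 the groups did not overlap (3 by library totals). Of all genes tested, 47.5% had a lower estimate (29.6% by library totals) and 16.6% were lower without overlap (6.9% by library totals). Psmd4 was at 60.2, 61.4 and 69.7 CPM in mAktDKO and 85.3, 76.3 and 74.5 CPM in control EDL (log2 fold change -0.30, SE 0.092, adjusted p = 0.101, edgeR). Psmd14, which cuts ubiquitin from the substrate, was at 39.6, 35.2 and 32.7 CPM against 43.6, 44.7 and 44.1 CPM (log2 fold change -0.30, SE 0.091, adjusted p = 0.101, edgeR). Psmd11, a lid subunit, was at 72.1, 74.5 and 77.8 CPM against 94.0, 84.6 and 90.7 CPM (log2 fold change -0.26, SE 0.078, adjusted p = 0.0985, edgeR). In these 3 genes the highest mAktDKO mouse was below the lowest control mouse.

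Within the 19S particle and with TMM scaling, the 3 base non-ATPases Psmd1 (-0.20), Psmd2 (-0.29) and Psmd4 (-0.30) were all without overlap. By library totals, 3 of the 14 non-ATPases of base and lid and their chaperones were without overlap. The share of all genes lower without overlap was 16.6% with TMM and 6.9% by library totals. Of the 8 lid subunits, Psmd3 (-0.26), Psmd6 (-0.19), Psmd11, Psmd12 (-0.19), Psmd13 (-0.28) and Psmd14 were without overlap, whereas Psmd7 and Psmd8 overlapped, and the median of the lid was -0.22. Psmd5, Psmd9 and Psmd10 are chaperones that assemble the base and leave the finished particle. They were at -0.062, -0.23 and -0.32, and only Psmd10, at 5.83, 5.03 and 4.59 CPM against 6.08, 6.20 and 7.11 CPM, had no overlap (adjusted p = 0.229, edgeR).

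**Figure D2:**
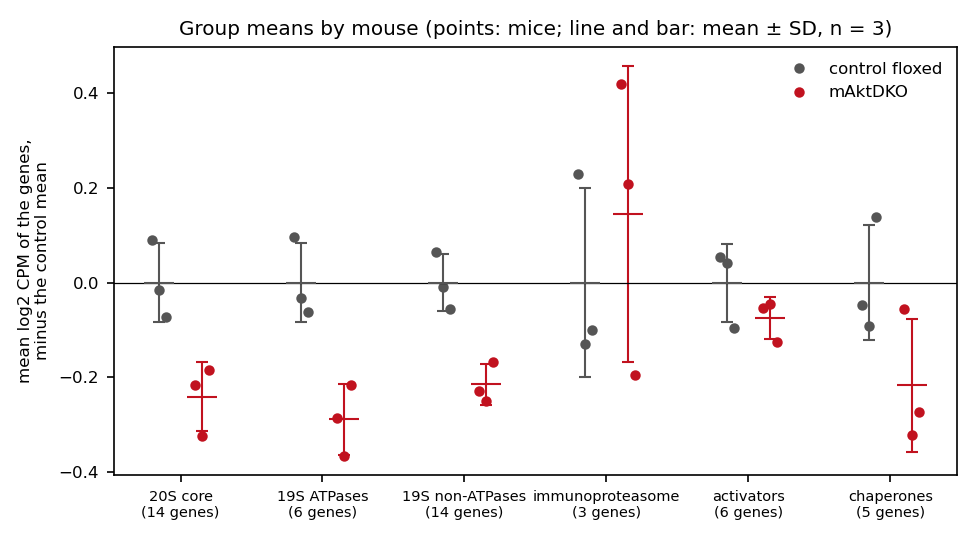
Mean TMM-scaled log2 CPM of the genes of each group in each mouse, relative to the mean of the control mice (points are mice, lines and bars are mean ± SD, n = 3). In the 20S core, the 19S ATPases and the 19S non-ATPases the 3 mAktDKO mice lie below the 3 control mice, and in the immunoproteasome, activators and chaperones the mice of both groups mix.

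Mouse by mouse, the mean of the 48 genes relative to the control mean was -0.15, -0.24 and -0.19 on the log2 scale in the mAktDKO mice and 0.073, -0.024 and -0.049 in the control mice. For the 20S core these means were -0.22, -0.32 and -0.18 against 0.090, -0.017 and -0.073, and for the 19S ATPases -0.29, -0.37 and -0.22 against 0.095, -0.033 and -0.063. Control mouse 2 was the highest of the control mice in 33 of the 48 genes, and mAktDKO mouse 3 the highest of the mAktDKO mice in 26. Without control mouse 2, 42 members had a lower estimate as before, Psmd8 turned higher and Psmg4 turned lower, so that 33 of 34 genes of the 20S core and 19S particle were lower. In this fit 27 members were lower without overlap, where the share of all genes was 19.6% (16.6% with all mice). The median was -0.19, and Psmb5 had an adjusted p of 0.0443 (edgeR).

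The immunoproteasome subunits were expressed at a low level, with higher estimates for Psmb8 and Psmb9 and a lower one for Psmb10. Psmb8 (chromosome 17, 34197721 to 34201454), which replaces Psmb5, was at 4.06, 3.00 and 2.95 CPM in mAktDKO and 3.22, 2.77 and 3.18 CPM in control EDL (log2 fold change 0.13, SE 0.20, adjusted p = 0.731, edgeR). The groups overlapped, and mAktDKO mouse 1 alone was above all control mice. Psmb9 (chromosome 17, 34181987 to 34187764), which replaces Psmb6, was at 1.20, 1.20 and 0.549 CPM and 0.769, 0.511 and 0.529 CPM (log2 fold change 0.71, SE 0.42, adjusted p = 0.318, edgeR). These values rest on 8 to 20 counts in the mAktDKO mice and 7 to 11 in the control mice, and mAktDKO mouse 3 lay within the control range. Psmb10 (chromosome 8, 105935735 to 105938444), which replaces Psmb7, was at 5.96, 5.15 and 4.39 CPM and 7.48, 5.69 and 5.14 CPM, with overlap (log2 fold change -0.24, SE 0.19, adjusted p = 0.456, edgeR). Without mAktDKO mouse 1, Psmb8 was at -0.040, which changes its direction.

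The ratio of each immunoproteasome gene to its counterpart within a mouse needs no scaling between mice. The counts of Psmb8 were 7.57%, 6.38% and 6.18% of those of Psmb5 in the mAktDKO mice and 4.15%, 3.74% and 4.81% in the control mice. The means were 6.71% ± 0.750 and 4.23% ± 0.536 (SD, n = 3), a difference of 0.67 on the log2 scale, and the groups did not overlap (two-sided exact permutation test, p = 0.1, which is the minimum for groups of 3, adjusted p = 0.15 over 3 ratios). The counts of Psmb9 were 2.26%, 2.63% and 1.08% of those of Psmb6 in the mAktDKO mice and 1.07%, 0.780% and 0.832% in the control mice. This ratio differed by 1.07 on the log2 scale (two-sided exact permutation p = 0.1, adjusted p = 0.15), although mAktDKO mouse 3 at 1.08% and control mouse 2 at 1.07% were nearly equal. The counts of Psmb10 were 5.52%, 5.16% and 3.61% of those of Psmb7 in the mAktDKO mice and 4.87%, 3.99% and 4.06% in the control mice, which overlapped (log2 difference 0.13, two-sided exact permutation p = 0.6). For the Psmb8 to Psmb5 and Psmb9 to Psmb6 ratios the denominators had lower estimates and the numerators higher ones. With TMM scaling, Psmb5 was at -0.55 (SE 0.093) and Psmb8 at 0.13 (SE 0.20) on the log2 scale. Psmb6 was at -0.43 (SE 0.090) and Psmb9 at 0.71 (SE 0.42). The summed level of 14 leukocyte markers was 173 to 209 CPM in the mAktDKO mice and 131 to 187 CPM in the control mice, with Cd3e, Cd79a and Nkg7 at 3 counts or fewer in every mouse. The part of leukocyte RNA in the immunoproteasome values was not tested.

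**Figure D3:**
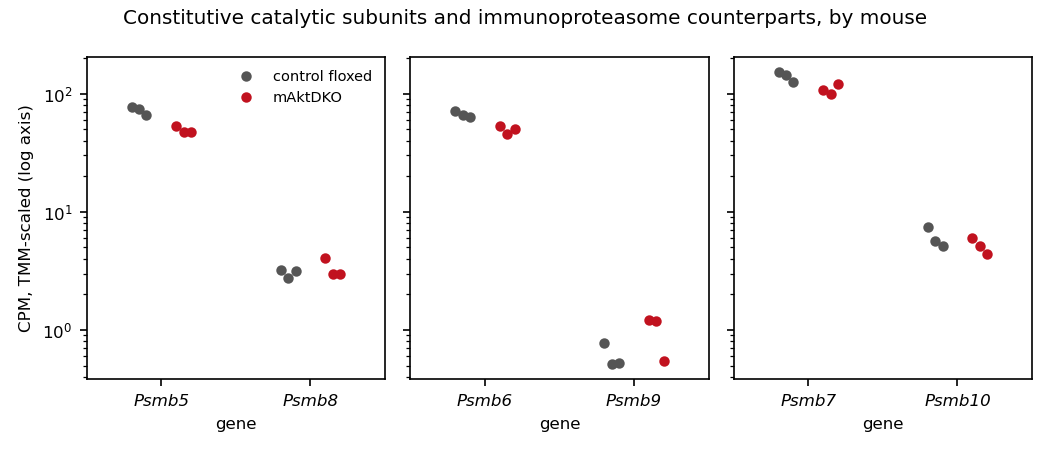
Level of the 3 constitutive catalytic subunits and of the immunoproteasome subunits that replace them, in CPM on a log axis, with a point for each mouse. For Psmb5, Psmb6 and Psmb7 the mAktDKO mice lie below the control mice without overlap, and for Psmb8, Psmb9 and Psmb10 the groups overlap at levels of 0.511 to 7.48 CPM.

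The activators and the inhibitor differed less. Psme1, a subunit of the PA28 cap, was at 15.7, 15.1 and 12.7 CPM in mAktDKO and 17.7, 17.7 and 16.1 CPM in control EDL and had no overlap (log2 fold change -0.24, SE 0.11, adjusted p = 0.222, edgeR). Psme2, its partner, was at 13.4, 12.5 and 10.9 CPM against 14.3, 12.9 and 14.1 CPM, with overlap (log2 fold change -0.17, SE 0.12, adjusted p = 0.380, edgeR). Psme2b, a near-identical copy of Psme2 on another chromosome, was at 2.56, 2.45 and 2.06 CPM against 2.58, 2.56 and 1.82 CPM (log2 fold change 0.019). Its estimated counts were 12.9% to 19.8% of those of Psme2, and the reads of both genes cannot be separated with certainty. Their sum had a log2 fold change equal to -0.14 (adjusted p = 0.449, edgeR). Psme3, the nuclear form of the cap, was at 39.4, 44.0 and 43.7 CPM against 39.8, 41.7 and 39.4 CPM (log2 fold change 0.072, adjusted p = 0.611, edgeR). Psme4, which encodes the PA200 activator and had the highest CPM of all 48 genes, was at 493, 489.9 and 560.4 CPM against 534, 527 and 543 CPM (log2 fold change -0.056, SE 0.086, adjusted p = 0.717, edgeR). The control mice lay within the range of the mAktDKO mice. Psmf1, the inhibitor of the core particle, was at 12.7, 13.6 and 13.9 CPM against 14.8, 15.2 and 12.2 CPM, with overlap (log2 fold change -0.075, adjusted p = 0.715, edgeR). Psme1 was the one gene of the 6 without overlap, a share of 16.7% against 16.6% of all genes. By library totals 0 of the 6 were lower without overlap, against 6.9% of all genes. The median of the 6 was -0.065, or 0.071 by library totals, where Psme4 and Psmf1 were also above 0.

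Of the chaperones that build the 20S core, Pomp, which guides the beta subunits and becomes the first substrate of the finished particle, had a lower estimate. Pomp (chromosome 5, 147860461 to 147876456) was at 36.6, 34.6 and 37.1 CPM in mAktDKO and 48.8, 44.1 and 42.3 CPM in control EDL, with means of 36.1 ± 1.31 and 45.1 ± 3.37 CPM (SD, n = 3). The groups did not overlap, and the log2 fold change was -0.32 (SE 0.086, adjusted p = 0.0822, edgeR). Psmg1, which pairs with Psmg2 to assemble the alpha ring, was at 5.20, 3.77 and 3.09 CPM against 5.45, 4.24 and 6.58 CPM (log2 fold change -0.43, SE 0.24, adjusted p = 0.291, edgeR). Psmg2 was at 9.70, 9.94 and 8.98 CPM against 9.51, 9.34 and 10.1 CPM (log2 fold change -0.013, or 0.13 by library totals, adjusted p = 0.956, edgeR). Psmg3 was at 3.42, 1.74 and 2.74 CPM against 4.40, 3.21 and 3.25 CPM (log2 fold change -0.46, SE 0.27, adjusted p = 0.314, edgeR), and its partner Psmg4 at 1.39, 1.498 and 1.44 CPM against 0.769, 1.39 and 1.97 CPM (log2 fold change 0.081, SE 0.35, adjusted p = 0.908, edgeR). In all 4 Psmg genes the groups overlapped, and the large standard errors of Psmg3 and Psmg4 go with 29 to 63 and 11 to 26 counts in a mouse.

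Levels between genes were compared per kb of the principal transcript, since longer transcripts yield more reads. In the control mice Psmb7 was the highest of the 48 at 121 ± 11.7 CPM per kb (SD, n = 3). It was followed by Psmd2 at 84.3 ± 9.45, Psmb6 at 83.9 ± 5.29, Psmc3 at 82.7 ± 4.72, Psme4 at 82.3 ± 1.23 and Psmb5 at 80.7 ± 6.53 CPM per kb, and these 5 lay within the spread of each other. Psma2 was the lowest gene of the 20S core at 14.3 CPM per kb. The immunoproteasome subunits were at 0.446 (Psmb9), 1.88 (Psmb8) and 4.66 (Psmb10) CPM per kb. Among the chaperones, Pomp was at 28.5 CPM per kb and Psmg1 to Psmg4 between 2.48 and 9.10, and the base chaperones Psmd5, Psmd9 and Psmd10 lay between 3.21 and 5.85. Of the activators, Psme1, Psme2 and Psme3 were at 15.4, 14.3 and 15.1 CPM per kb, below Psme4. Which isoform is expressed is not known from counts per gene, so these levels depend on the transcript chosen.

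**Figure D4:**
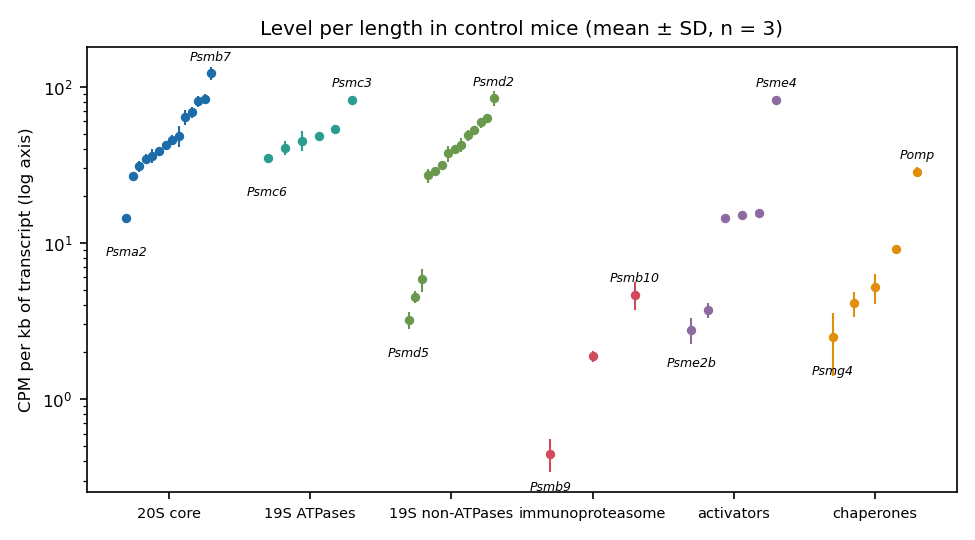
Level of each of the 48 genes in the control mice in CPM per kb of transcript (log axis; points and bars are mean ± SD, n = 3), ordered within each group. Apart from Psmd5, Psmd9 and Psmd10, genes of the 20S core and the 19S particle lie between 14.3 (Psma2) and 121 (Psmb7), with the base chaperones, the immunoproteasome and the Psmg chaperones below them.

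The difference in the 20S core and the 19S particle depended on what they were compared with. As a share of all counts, the 34 genes of the 20S core and 19S particle took 0.219%, 0.215% and 0.214% in the mAktDKO mice and 0.243%, 0.233% and 0.226% in the control mice, with no overlap. Per 1000 counts of the 6 activators within the same mouse they had 3542, 3422 and 3368 counts in the mAktDKO mice and 4207, 3891 and 3754 in the control mice, again with no overlap. Psme4 alone made up 84.8% to 87.1% of the activator counts in a mouse, so this comparison is mostly with 1 gene. Per 1000 counts of 12 fast fibre markers, the values were 14.2, 14.4 and 14.1 in the mAktDKO mice and 15.3, 14.1 and 14.8 in the control mice, and the groups overlapped. The fast fibre markers were themselves lower, with 12 of 12 at a lower estimate (10 by library totals), 8 without overlap (16.6% over all genes), a median log2 fold change of -0.22, and summed levels of 137693 to 153578 CPM in the mAktDKO mice against 159328 to 171238 CPM in the control mice. The median of the 34 genes (-0.24) and that of the fast fibre markers were thus of similar size. Single fast fibre markers ranged from -0.79 to -0.018, and the 34 genes from -0.55 to -0.053. The part of fibre RNA content was not tested. Of 8 slow fibre markers, 6 had a higher estimate with a median of 0.40, and they summed to 772 to 1425 CPM in the mAktDKO mice against 686 to 960.3 CPM in the control mice, with overlap.

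**Figure D5:**
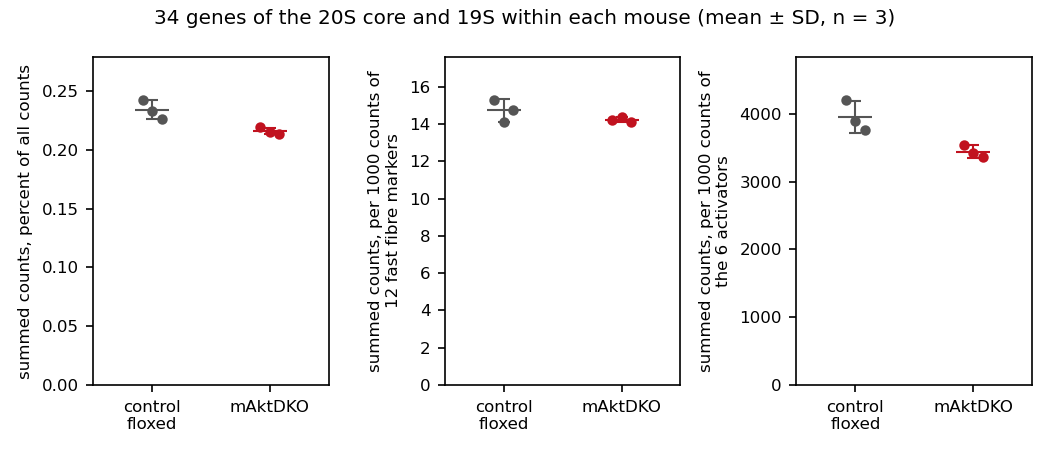
Summed counts of the 34 genes of the 20S core and 19S particle in each mouse, as a percentage of all counts, per 1000 counts of 12 fast fibre markers and per 1000 counts of the 6 activators, mostly Psme4 (points are mice, lines and bars are mean ± SD, n = 3, axes start at 0). The groups are separate on the left and on the right and overlap in the middle.

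Markers of other cell types were also summed in each mouse. The fibro-adipogenic progenitor markers summed to 19207 to 22589 CPM in the mAktDKO mice and 8255 to 19362 CPM in the control mice, with the lowest value in control mouse 2. Adipocyte markers summed to 153 to 240 against 129 to 160 CPM, Schwann cell and nerve markers to 425 to 561 against 373 to 448, endothelial markers to 553 to 656 against 485 to 611, smooth muscle and pericyte markers to 580 to 680 against 526 to 599, satellite cell markers to 15.2 to 19.3 against 12.03 to 16.6, and erythroid markers to 150 to 320 against 114 to 168 CPM. All of these summed ranges overlapped between the groups. Gene by gene, 7 of 8 fibro-adipogenic progenitor markers had a higher estimate (median 0.40, 2 without overlap), as did 6 of 6 adipocyte markers (median 1.02, 1 without overlap), 5 of 6 Schwann cell and nerve markers (median 0.26, 2 without overlap) and 4 of 5 satellite cell markers (median 0.22, 1 without overlap). Over all genes, 14.6% were higher without overlap. Of the erythroid markers 5 of 5 had a higher estimate, with the haemoglobin gene Hbb-bs at 0 CPM in every control mouse and 9.21 to 23.5 CPM in the mAktDKO mice (adjusted p = 0.0180, edgeR). Its close copy Hbb-bt overlapped, at 9.77 to 23.1 against 9.01 to 13.2 CPM, and the reads of both genes may not be separable. Hba-a2 did not overlap, at 103 to 134 against 25.9 to 97.7 CPM, and Alas2 and Hba-a1 overlapped. Endothelial markers (6 of 10 higher, median 0.025) and smooth muscle and pericyte markers (3 of 6 higher, 2 without overlap, median 0.017) had medians close to 0, but by library totals 10 of 10 and 6 of 6 were higher, with medians of 0.16 each. Their part in the proteasome values was not tested.

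Short reads of 37 bases also fit processed pseudogenes, of which proteasome genes have many. Windows of 37 bases in the principal transcript were compared with the transcripts of all other genes. For 16 of the members 5% or more of the windows occurred in another gene, with the highest shares in Psme2b (75.3%), Psmb5 (69.5%), Psme2 (64.0%), Psmb3 (63.8%) and Psma5 (60.6%), whereas the share was 9.32% in Psmb6 and 1.51% in Psmb7. For Psmb5 the gene with the largest share is Gm3375 (57.5%), which has no row in the count table, so how reads fitting both were counted is not known here. Of the 32 members under 5%, 28 had a lower estimate, as did 22 of 22 genes of the 20S core and 19S particle among them, and the median was -0.21.

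The other genes of the pathway were examined by lists, and 0 genes of any of them passed the adjusted p of 0.01 in edgeR. DESeq2 called Shfm1 lower and B2m higher at this threshold, where 0.814% of all genes were called higher. By library totals the medians of the first 5 lists moved to between 0.0037 and 0.066, so the directions of these lists depend on the scaling. For comparison with the counts of each list, 47.5% of all genes had a lower estimate. At an unadjusted p under 0.05, 13.1% of all genes were lower and 11.4% higher. Of 14 further subunits and proteins that bind the proteasome, 9 had a lower and 5 a higher estimate, with 4 lower and 1 higher at an unadjusted p under 0.05 and a median of -0.088. Shfm1, the smallest subunit of the lid, was at 32.1, 22.8 and 26.5 CPM in mAktDKO and 42.6, 37.8 and 38.2 CPM in control EDL, without overlap (log2 fold change -0.54, adjusted p = 0.0623, edgeR). Adrm1, a ubiquitin receptor of the 19S particle, was at -0.36 (adjusted p = 0.125, edgeR) and Zfand2b at -0.44 (adjusted p = 0.126, edgeR). Of 8 tested shuttle factors, which carry ubiquitinated proteins to the proteasome, 6 had a lower estimate, 1 lower and 1 higher at an unadjusted p under 0.05, and the median was -0.070. Ubqln2 was at 0.34 (adjusted p = 0.0741, edgeR), higher in the mAktDKO mice without overlap. Of 6 ubiquitin genes and activating enzymes, 5 had a lower estimate, 2 of them with an unadjusted p under 0.05, and the median was -0.13. The polyubiquitin gene Ubb was at -0.26 (adjusted p = 0.113), and the activating enzyme Uba6 at 0.22 (adjusted p = 0.263, both edgeR).

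Of 12 genes of the p97 segregase, which extracts ubiquitinated proteins from complexes, and its cofactors, 9 had a lower estimate, 4 lower and 2 higher at an unadjusted p under 0.05, with a median of -0.13. At this p, 13.1% of all genes were lower and 11.4% higher. Vcp, the segregase itself, was at 483, 442 and 505 CPM in mAktDKO and 592, 586 and 563 CPM in control EDL, without overlap (log2 fold change -0.28, adjusted p = 0.1003, edgeR). The cofactor Ubxn1 was at -0.46 (adjusted p = 0.0598, edgeR) and the deubiquitinase Yod1 at 0.31 (adjusted p = 0.137, edgeR). Of 14 tested regulators of proteasome gene transcription, 9 had a lower and 5 a higher estimate, 1 in each direction at an unadjusted p under 0.05, with a median of -0.078. Nfe2l1 was at 501, 544 and 625 CPM against 785, 565 and 579 CPM, with overlap (log2 fold change -0.21, SE 0.14, adjusted p = 0.385, edgeR). Nfe2l2 was at 32.7, 35.2 and 37.9 CPM against 32.0, 28.6 and 28.0 CPM, without overlap and higher in the mAktDKO mice (log2 fold change 0.25, SE 0.095, adjusted p = 0.150, edgeR). Ngly1, the enzyme that processes Nfe2l1, was at -0.22 (adjusted p = 0.137, edgeR) and Keap1, which holds Nfe2l2 for degradation, at -0.19 (adjusted p = 0.216, edgeR).

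The partners of the immunoproteasome in the presentation of peptides on class I molecules mostly had higher estimates. Of 15 genes, 11 had a higher estimate, 4 of them with an unadjusted p under 0.05, and the median was 0.18 (0.32 by library totals). Over all genes, 6762 of 12892 had a higher estimate, and 11.4% had a higher estimate with an unadjusted p under 0.05. Tap2, Tapbp, Nlrc5 and Ifngr2 had a lower estimate, all with overlap. Of the 10 leukocyte markers tested, 8 had a higher estimate, 3 of them without overlap, where the share of all genes was 14.6%. Their median was 0.31, and the part of leukocyte RNA in these values was not tested. B2m, the light chain of class I molecules, was at 70.8, 80.9 and 61.6 CPM in mAktDKO and 36.1, 51.2 and 48.4 CPM in control EDL, without overlap (log2 fold change 0.65, SE 0.15, adjusted p = 0.0585, edgeR). The heavy chain H2-D1 was at 0.31 (adjusted p = 0.0955, edgeR), and its groups did not overlap either.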

How the data were processed

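RNA of EDL was sequenced in 3 mAktDKO and 3 control floxed mice. The authors depleted ribosomal RNA, made directional libraries, read them as paired 37 bp reads, mapped them to mm10 with STAR and estimated reads per gene with RSEM 1.3.1 (submitters' processing notes). The annotation used is not given in the sources used here. The deposited values are these estimated counts, not scaled between mice, of which 3.36% to 4.09% in a mouse were not whole. RSEM divides reads that fit several similar genes, so members with close copies are less certain.

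Estimated counts were rounded, filtered in edgeR 4.0.16 under R 4.3.3 (filterByExpr, minimum count 10) and TMM-scaled. The quasi-likelihood test gave p-values, Benjamini-Hochberg adjusted over 12892 genes, with calls at 0.01. DESeq2 1.42.0 gave adjusted p-values for 10440 genes. The steps were tested on simulated data with larger differences than those of the members, so detection of smaller differences was not tested. Ratios within a mouse were compared by exact permutation, two-sided. Positions and lengths are from GENCODE (mm10), promoters from RefSeq (GRCm38.p6).

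The members and lists were chosen with earlier results of these data known. Values in each mouse are given for the catalytic subunits, activators, chaperones and the 3 members of each group with the smallest p, and outside the members for Akt1, Akt2, Nfe2l1, Nfe2l2 and at most 3 genes of a list, of which some are not reported here. Values of Psmb4, Psma5, Psma7, Psmd10, Shfm1, Vcp and B2m in each mouse were added after they were seen. Alternatives were other scalings, filters, thresholds, DESeq2, leaving out each mouse and the treatment of reads shared by copies. The control samples are labelled 1 to 3 but their columns carry 2 to 4, so a column stands for the group.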

Additional observations from a re-analysis of the deposited data

How the results depend on the processing

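With DESeq2 size factors, upper-quartile scaling and no filter on low counts, 43 of the 48 members had a lower estimate as with TMM, and 34 of 34 genes of the 20S core and 19S particle did. Scaling by library totals moved the median of all genes to 0.16 and the share of genes with a lower estimate from 47.5% to 29.6%. It gave 34 members with a lower estimate (28 of 34 in the 20S core and 19S particle). Of the members 12 were lower without overlap, against 6.9% of all genes. The medians were then -0.082 for all members, -0.069 for the 20S core, -0.16 for the 19S ATPases, -0.11 for the 19S non-ATPases, 0.071 for the activators and -0.18 for the chaperones, with Psme4 at 0.079, Psmf1 at 0.063 and Psmg2 at 0.13. For the immunoproteasome the median moved from 0.13 with TMM to 0.27. Relative to the median of all genes, 43 members were lower under library totals as under TMM, and the members' median was lower by -0.24 on the log2 scale in both. DESeq2's test called 2 members lower at 0.01 and edgeR called 1 at 0.05, or 2 (Psmb5 and Psmb6) with no filter and with at least 10 counts in every mouse. The immunoproteasome median was -0.052 with at least 10 counts in every mouse, where Psmb9 was left out. Leaving out 1 mouse at a time, 42 to 45 members and 33 or 34 of 34 genes of the 20S core and 19S particle had a lower estimate. Psmb1 turned higher without mAktDKO mouse 2, Psmd8 without control mouse 2 and Psmd5 without control mouse 3. In these fits 27 to 33 members were lower without overlap, where the share of all genes was 18.8% to 23.7%, against 16.6% with all mice. Of the members 0 were called, and Psmb5 was between -0.62 and -0.50 with adjusted p of 0.0376 to 0.220 in edgeR. The ranges included both directions for the immunoproteasome median and Psmb8 (-0.040 to 0.20 each), Psme2b (-0.13 to 0.10), Psmg2 (-0.043 to 0.017) and Psmg4 (-0.21 to 0.42). They were wide for Psmg1 (-0.66 to -0.27), Psmg3 (-0.70 to -0.23), Psmb10 (-0.36 to -0.067), Psme2 (-0.24 to -0.11), Psme4 (-0.14 to -0.022), Psmf1 (-0.17 to -0.017), Psme3 (0.033 to 0.12), the activators' median (-0.14 to -0.039) and the log2 difference in the Psmb10 to Psmb7 ratio (0.0083 to 0.32). Low counts limit the precision of Psmb9, Psmg4, Psme2b and Psmg3. No paired analysis was possible because the replicate numbers of the labels are not those of the control columns.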
